A study of Mus musculus with 9 samples.

Results

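Interferon-stimulated genes were examined in natural killer (NK) cells, innate lymphocytes that kill infected and tumour cells, on 9 Affymetrix expression arrays from mouse. The set is a list of 37 gene symbols, and its members were found as the probe sets that the array's annotation assigns to those symbols alone. A probe set of their own was found for 35 members, out of 18193 genes on the array with one. Isg15 and Ifi44 had none and carry no value here. A gene was read from its brightest probe set, and the differences were tested for genes whose mean intensity over the 9 arrays reached 47.7, which left 33 members among 12925 genes. Oas3 and Oasl2, a pair of oligoadenylate synthetase family members, lay under that limit.

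The NK cells were purified by flow cytometric sorting from 3 groups with 3 biological replicates each. IL15tg spleen holds cells that the series' design text calls mature, from mice with a transgene for interleukin-15, the cytokine on which NK cells depend. NKDxIL15tg spleen and NKDxIL15tg bone marrow hold cells called immature, from mice that carry the same IL15tg transgene together with NKD. NKD is known as a transgenic mouse line with few mature NK cells. All 3 groups therefore share IL15tg. The NKD genotype and the immature state always occur together and cannot be told apart. The promoter of either transgene, the age of the mice, the sorting gate and whether animals were pooled are not given in the sources used here, so p-values measure the spread between these samples.

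Interferons are secreted proteins that warn cells of infection. Type I interferons (interferon-alpha and interferon-beta) signal through the receptor chains Ifnar1 and Ifnar2 to a complex that includes Stat2 and Irf9 and binds the interferon-stimulated response element in target genes. Interferon-gamma, which NK cells themselves secrete, signals through Ifngr1 and Ifngr2 and acts at the gamma-activated site, and many target genes answer to both kinds. Their products sense viral nucleic acid, block steps of viral replication, attack the vacuoles of intracellular microbes, or feed back on the pathway.

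The promoters of some members are shown first because interferon acts on its target genes there. RefSeq windows on GRCm38.p6, which run from 250 bases before to 50 bases after an annotated start, were matched for 29 of the 37 members (36 windows). Both strands were searched for the core of the interferon-stimulated response element, which is GAAA, any 2 bases and GAAA again, and for TTCNNNGAA, the gamma-activated site. The response element core was found in 16 of 29 members (55.2%), and in 3.99% of the 27025 genes with a window of the same length. TTCNNNGAA was found in 9 of 29 members (31.0%) and in 9.55% of all genes. Both occurred in 4 members (13.8%) and in 0.54% of all genes. A match is a description of the letters, not evidence of binding. Isg15, with no value on the array, had 3 matches to the response element core, and Trim25 had none to either motif in its window. The windows printed here belong to the 3 GTPase genes and the 2 antiviral genes whose RNA was higher in NKDxIL15tg than in IL15tg spleen. They read 5′ to 3′ along the gene's strand, and capitals mark the motif letters, where a core on the opposite strand shows as TTTC, any 2 bases and TTTC, and the gamma-activated site has the same pattern on both strands.
Gbp2, chr3:142620413-142620712, + strand: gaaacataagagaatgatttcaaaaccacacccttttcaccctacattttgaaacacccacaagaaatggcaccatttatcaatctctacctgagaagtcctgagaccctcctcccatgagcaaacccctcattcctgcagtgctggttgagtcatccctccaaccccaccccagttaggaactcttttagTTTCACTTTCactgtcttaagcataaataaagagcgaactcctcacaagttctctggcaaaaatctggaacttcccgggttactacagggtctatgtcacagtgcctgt
Gbp3, chr3:142559794-142560093, + strand: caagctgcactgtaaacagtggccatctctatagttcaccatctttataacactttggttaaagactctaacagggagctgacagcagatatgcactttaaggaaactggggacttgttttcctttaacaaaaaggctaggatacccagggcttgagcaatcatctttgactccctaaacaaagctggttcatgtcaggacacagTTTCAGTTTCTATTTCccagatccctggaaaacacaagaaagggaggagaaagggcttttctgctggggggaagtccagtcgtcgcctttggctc
Igtp, chr11:58199306-58199605, + strand: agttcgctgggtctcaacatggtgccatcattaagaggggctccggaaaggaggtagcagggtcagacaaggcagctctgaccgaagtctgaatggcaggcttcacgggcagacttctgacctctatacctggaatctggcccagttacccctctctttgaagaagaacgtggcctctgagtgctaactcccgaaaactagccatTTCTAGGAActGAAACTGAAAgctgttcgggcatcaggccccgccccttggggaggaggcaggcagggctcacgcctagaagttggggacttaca
Rsad2, chr12:26456403-26456702, - strand: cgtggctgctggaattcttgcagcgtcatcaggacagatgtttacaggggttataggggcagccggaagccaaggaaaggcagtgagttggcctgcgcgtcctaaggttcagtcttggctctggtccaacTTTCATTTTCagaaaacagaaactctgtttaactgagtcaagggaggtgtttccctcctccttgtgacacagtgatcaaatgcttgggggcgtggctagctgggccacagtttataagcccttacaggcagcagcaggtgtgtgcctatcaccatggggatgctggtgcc
Isg20, chr7:78913174-78913473, + strand: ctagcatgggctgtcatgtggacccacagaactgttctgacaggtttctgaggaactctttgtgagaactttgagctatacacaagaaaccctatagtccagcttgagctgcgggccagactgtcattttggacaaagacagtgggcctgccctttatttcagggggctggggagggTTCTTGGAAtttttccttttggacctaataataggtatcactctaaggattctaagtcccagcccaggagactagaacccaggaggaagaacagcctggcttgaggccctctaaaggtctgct
In Gbp2 the core match began 59 bases before the start. Gbp3 had 2 overlapping matches, at 45 and 39 bases, and its other annotated start had none. In Igtp a gamma-activated site at 45 bases was followed by a core match at 34 bases, with no overlap. The Rsad2 match lay at 120 bases. Isg20 had a gamma-activated site at 73 bases in 1 of its 3 windows and no core match in any of them. Of the members that passed in no comparison, Ifit1 had 2 core matches, Ifit3 had 2 and Irgm1 had 2, so the motif was present in members that passed the test and in members that did not.

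The NK cell identity of the samples was checked with markers. All 11 NK marker genes with their own probe set lay above the limit in every group, with a summed intensity of 40883 to 42595 in IL15tg spleen, 30444 to 33955 in NKDxIL15tg spleen and 24953 to 27288 in NKDxIL15tg bone marrow. Klrk1 (mean intensities 1383, 173 and 196), Klrd1 (5941, 1232 and 898) and Tbx21 (2036, 840 and 648) were lower in both NKDxIL15tg groups and Prf1 (3253, 2366 and 1782) in bone marrow, while the other 7, such as Ncr1 (1642, 1078 and 1156) and Eomes (1973, 2512 and 2528), did not pass. Markers of other cells differed between the groups too. The sum of 14 granulocyte and monocyte markers was 1512 to 1853, 3649 to 8200 and 11814 to 30163 in the same order, and 5 of 13 tested were higher in NKDxIL15tg spleen and 11 of 13 in bone marrow than in IL15tg spleen. The sum of 6 erythroid markers was 1689 to 1830, 7316 to 7806 and 5184 to 7185, of which Car2 alone had means of 1407, 7016 and 5986. Car2, Alas2 (42.3, 172 and 75.4) and Epor (103, 163 and 143) were higher in both NKDxIL15tg groups than in IL15tg spleen, while Klf1 and Slc4a1 did not pass. The sum of 8 T cell markers was 1086 to 1229, 2530 to 2933 and 2367 to 3179, of which Cd28 alone had means of 380, 1637 and 1410. Cd28 and Trat1 (72.6, 141 and 201) were higher in both NKDxIL15tg groups than in IL15tg spleen, while Cd3e, Cd3d, Cd3g, Cd4 and Cd8a did not pass. The sum of 7 B cell markers was 849 to 1455, 464 to 497 and 281 to 313. That of 8 macrophage and dendritic cell markers was 2851 to 5272, 1977 to 2155 and 1256 to 1798, and its 3 lower genes were H2-Aa, H2-Eb1 and Cd74, which B cells also express. Plasmacytoid dendritic cells are strong producers of type I interferon, and their 8 markers summed to 2971 to 3168, 1713 to 1967 and 1615 to 1996. Irf8 alone had means of 2475, 1195 and 880 in that sum. Siglech (44.6, 46.7 and 49.7), Pacsin1 (39.0, 37.4 and 39.1) and Ccr9 (42.6, 39.8 and 57.5) were near or under the limit of 47.7, while Tcf4 (55.3, 54.0 and 71.0) was higher in bone marrow than in IL15tg spleen (adjusted p = 0.0371), and Tlr9 (109, 116 and 197), Klk1 (271, 306 and 448) and Tlr7 (61.7, 65.2 and 52.3) did not pass. The part of other cells in the values of the members was not tested, and in such bulk samples fewer cells of a type and less RNA per cell cannot be told apart. NKDxIL15tg bone marrow replicate 3 stood apart: its median intensity was 64.9, against 56.6 to 59.1 in the other arrays, and it exceeded every other array more than 2-fold in 2080 probe sets (7.7%), which no other array did in more than 6.

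The first comparison, of NKDxIL15tg with IL15tg spleen, asks how immature and mature NK cells of 1 organ differ. Of the 33 members, 6 were higher in the NKDxIL15tg cells and none was lower: Rsad2, Gbp2, Isg20, Gbp3, Ddx58 and Igtp (limma, Benjamini-Hochberg adjusted p under 0.05 over all tested probe sets). This is 18.2% of the members, where 12.5% of all genes passed in either direction, 7.65% higher and 4.87% lower. The median log2 change over the members was 0.01, beside 0.02 over all genes, and the members ran from -0.37 to 1.19. The list as a whole was therefore centred where the other genes were. In 9 members the spleen groups did not overlap (6 higher and 3 lower), and in 36.3% of all genes (21.3% higher and 15.1% lower).

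The second comparison, of NKDxIL15tg bone marrow with NKDxIL15tg spleen, asks how the organ matters among immature cells. None of the 33 members passed in limma, and 3 had an unadjusted p under 0.05. Few genes passed at all: 9 of 12925 (0.0696%, with 0.0232% higher and 0.0464% lower), with 1404 at an unadjusted p under 0.05. Among these 9 were markers of other cells. The granulocyte markers Mpo and Prtn3 were higher in bone marrow (adjusted p = 0.0175 each). The B cell markers Ms4a1 and Cr2 were lower (adjusted p = 0.00506 and 0.0141). The members' median log2 change was -0.06, beside 0.03 for all genes, and the groups did not overlap in 3 members (1 higher and 2 lower), where 16.9% of all genes showed this (10.8% higher and 6.03% lower).

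The third comparison, of NKDxIL15tg bone marrow with IL15tg spleen, differs in organ as well as in genotype and maturity, and it shares the IL15tg spleen arrays with the first. Of the 33 members, 3 were higher in the bone marrow cells (Gbp2, Isg20 and Ifitm3) and 2 were lower (Parp14 and Trim25). This is 15.2% of the members, beside 20.2% of all genes in either direction, 11.5% higher and 8.7% lower. The median log2 change was -0.01 over the members and 0.12 over all genes. The groups did not overlap in 11 members, 5 higher and 6 lower, beside 42.1% of all genes (25.4% higher and 16.6% lower). Over the 3 comparisons, 9 members passed at least once.

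**Figure D1:**
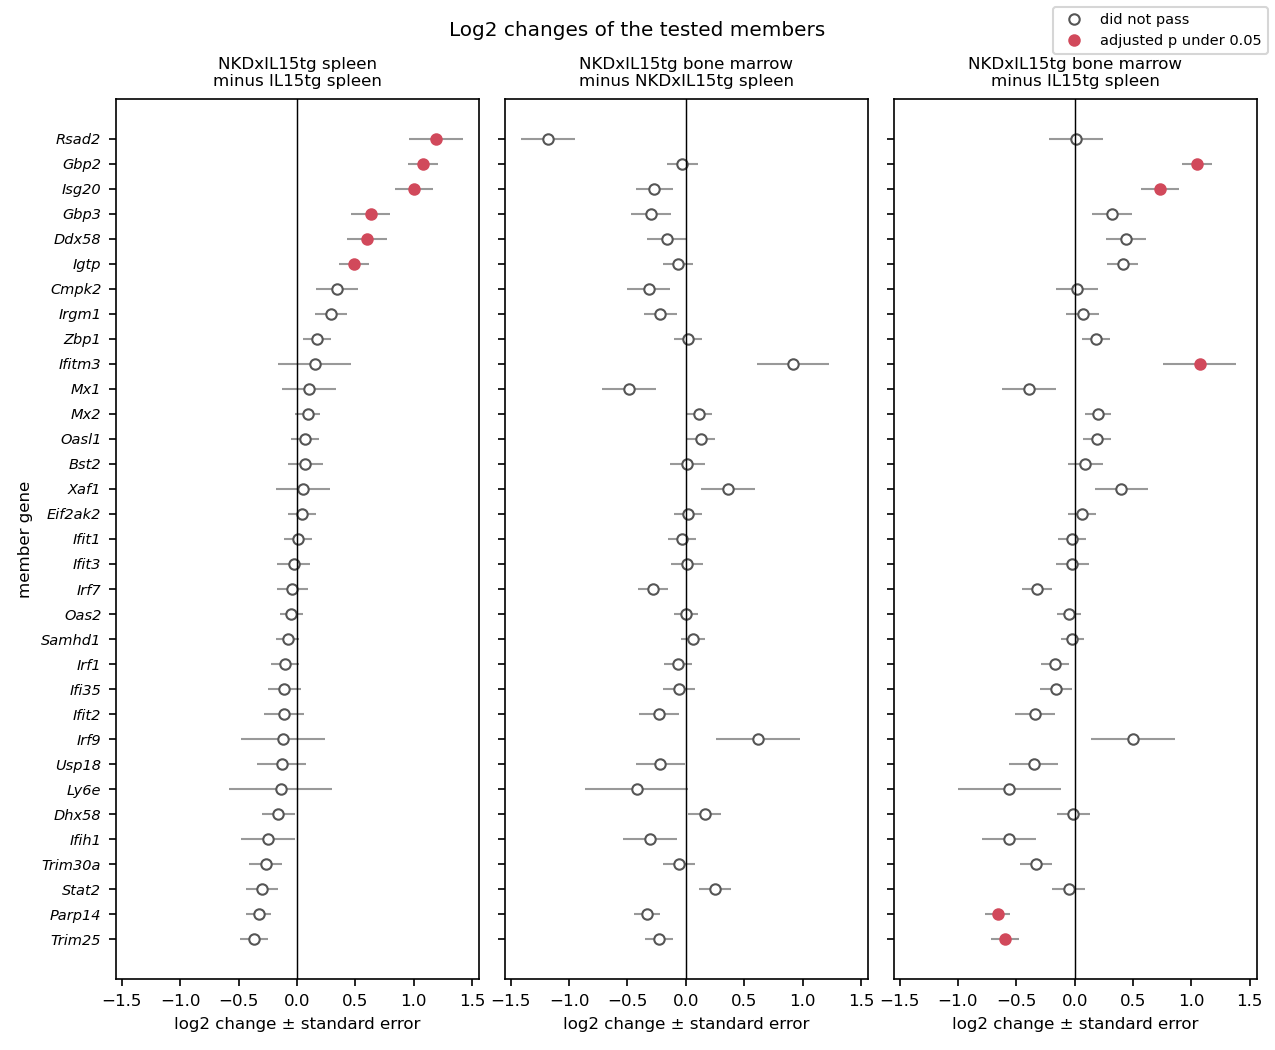
Log2 change (x axis, with its standard error) of each of the 33 tested members (y axis) in the 3 comparisons, from limma on 3 arrays per group. Filled points have an adjusted p under 0.05: 6 members to the right of 0 in the left panel, none in the middle panel, and 3 to the right and 2 to the left in the right panel.

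Many interferon-inducible GTPases gather on the vacuoles of intracellular bacteria and parasites and help to destroy them. In NKDxIL15tg against IL15tg spleen 3 of the 4 GTPase members were higher (7.65% of all genes), with a median log2 change of 0.56 over the 4. Gbp3 and Igtp passed under fewer than 8 of the 16 alternative settings. With quantile normalization 1 of the 4 passed, and the calls over all genes went from 1618 to 1396. Gbp2, a guanylate-binding protein gene on chromosome 3, had intensities of 321, 355 and 420 in the 3 IL15tg spleen replicates. It had 854, 696 and 753 in NKDxIL15tg spleen and 801, 710 and 743 in NKDxIL15tg bone marrow. All 6 NKDxIL15tg arrays lay above all 3 IL15tg arrays, and both NKDxIL15tg groups overlapped each other. The log2 change was 1.08 ± 0.13 (SE, n = 3 per group, adjusted p = 0.00117) in spleen and 1.05 ± 0.13 (adjusted p = 0.000931) in bone marrow against IL15tg spleen. Bone marrow and spleen of NKDxIL15tg differed by -0.03 ± 0.13 (adjusted p = 0.944). The brightest Gbp2 probe set is of a kind that can cross-hybridize with related genes, and the guanylate-binding proteins are a family of close relatives. The second Gbp2 probe set gave 0.91 (adjusted p = 0.00132) and 0.92 (adjusted p = 0.000899).

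Gbp3, a neighbour of Gbp2 in the same cluster on chromosome 3, read 753, 734 and 681 in IL15tg spleen. In NKDxIL15tg spleen it read 1051, 1158 and 1139, and in NKDxIL15tg bone marrow 1073, 1027 and 669. The spleen groups were apart, while bone marrow replicate 3 lay below every other array. In spleen Gbp3 was higher by 0.63 ± 0.17 (adjusted p = 0.0435). It passed under 6 of 16 alternative settings, and was lost without any 1 of the 6 spleen arrays (adjusted p 0.0797 to 0.133), with quantile normalization (0.146) and with scaling to a common 75th percentile (0.108). Bone marrow differed from IL15tg spleen by 0.32 ± 0.17 (adjusted p = 0.21), and by 0.54 (adjusted p = 0.00716) without bone marrow replicate 3.

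Igtp, an immunity-related GTPase gene on chromosome 11 also known as Irgm3, read 1131, 1054 and 1230 in IL15tg spleen. It read 1380, 1708 and 1707 in NKDxIL15tg spleen and 1456, 1691 and 1405 in NKDxIL15tg bone marrow. Every NKDxIL15tg array was above every IL15tg array. The spleen difference was 0.49 ± 0.13 (adjusted p = 0.039), and with the replicate number as a block its adjusted p was 0.0524. It passed under 7 of 16 alternatives, and was also lost without any 1 IL15tg array (0.0687 to 0.137), without NKDxIL15tg spleen replicate 2 (0.127) or 3 (0.104) or without bone marrow replicate 1 (0.0567), and with quantile normalization (0.121). In bone marrow against IL15tg spleen it was 0.41 ± 0.13 (adjusted p = 0.0517), and 0.038 was the adjusted p without bone marrow replicate 3. Irgm1, the remaining GTPase, had means of 364 ± 50.3, 445 ± 51.2 and 381 ± 35.1 (SD, n = 3) in the order of the groups above. Its groups overlapped, and its spleen difference was 0.29 ± 0.14 (adjusted p = 0.227).

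**Figure D2:**
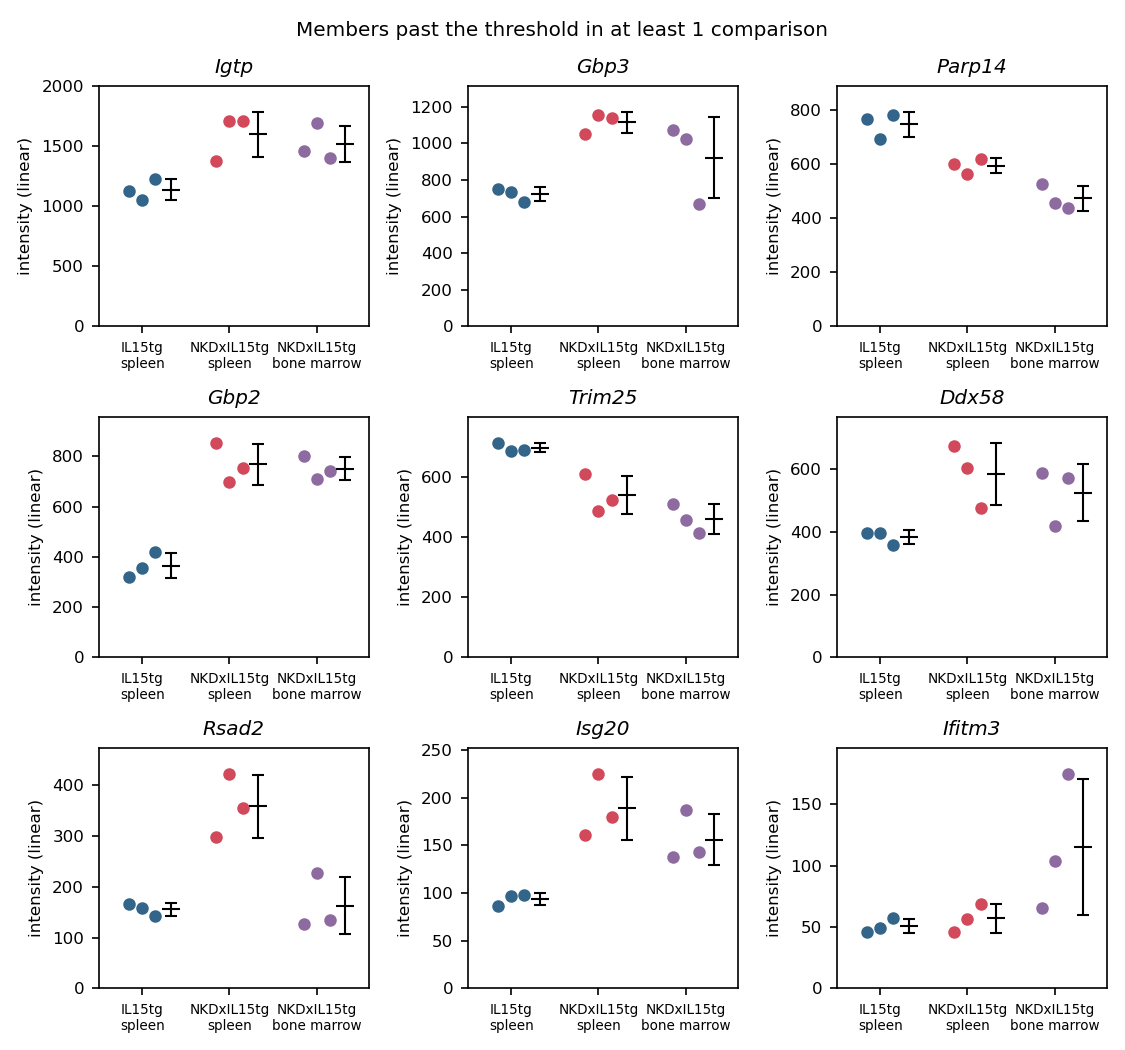
Intensity (y axis, linear, from 0) of the 9 members that passed the threshold in at least 1 comparison, in each array of the 3 groups (x axis). Points are arrays in the order of replicates 1 to 3, and bars are means ± SD of 3 arrays. Gbp2, Isg20 and Igtp sit higher in both NKDxIL15tg groups, Rsad2 in NKDxIL15tg spleen, and Parp14 and Trim25 lower in bone marrow than in IL15tg spleen.

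The antiviral effectors are the largest group, with 16 members that have a value and 14 tested. In spleen 2 of the 14 were higher, Rsad2 and Isg20, and in bone marrow against IL15tg spleen 2 of the 14 were higher, Isg20 and Ifitm3. These shares of 14.3% stand beside 12.5% and 20.2% of all genes that passed in either direction. The median log2 changes of the group were 0.07 and 0.02. Rsad2, on chromosome 12, encodes viperin, an enzyme that makes a chain-terminating nucleotide against viral RNA synthesis. Its intensities were 167, 159 and 142 in IL15tg spleen, 299, 423 and 356 in NKDxIL15tg spleen, and 127, 228 and 134 in NKDxIL15tg bone marrow. The 3 NKDxIL15tg spleen arrays lay above all other arrays, and bone marrow overlapped with IL15tg spleen. Rsad2 was higher in NKDxIL15tg than in IL15tg spleen by 1.19 ± 0.23 (adjusted p = 0.00963), the largest change of a member there. Bone marrow was lower than NKDxIL15tg spleen by about as much (-1.18 ± 0.23), with groups that did not overlap, but this did not pass over all probe sets (adjusted p = 0.247). Bone marrow differed from IL15tg spleen by 0.01 (adjusted p = 0.97). The second Rsad2 probe set, with group means of 36.6, 84.1 and 43.1, showed the same order, with a spleen difference of 1.10 (adjusted p = 0.0965).

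Isg20, on chromosome 7, encodes an exonuclease that degrades viral RNA. It read 86.0, 96.9 and 98.2 in IL15tg spleen, 161, 225 and 180 in NKDxIL15tg spleen, and 138, 187 and 143 in NKDxIL15tg bone marrow. All NKDxIL15tg arrays were above all IL15tg arrays. The differences from IL15tg spleen were 1.00 ± 0.16 (adjusted p = 0.00468) in spleen and 0.73 ± 0.16 (adjusted p = 0.0137) in bone marrow. The bone marrow call was lost without IL15tg spleen replicate 1 (adjusted p = 0.0614). Isg20 in bone marrow and spleen of NKDxIL15tg differed by -0.27 ± 0.16 (adjusted p = 0.498).

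Ifitm3, on chromosome 7, encodes a membrane protein that hinders viruses from entering through endosomes. It read 45.9, 49.5 and 57.2 in IL15tg spleen, 45.8, 56.2 and 69.1 in NKDxIL15tg spleen, and 65.9, 104 and 175 in NKDxIL15tg bone marrow. The spleen groups overlapped, near the limit for testing, and bone marrow was above IL15tg spleen with a wide spread. Bone marrow exceeded IL15tg spleen by 1.07 ± 0.31 (adjusted p = 0.0401), and by 0.71 (adjusted p = 0.0437) without bone marrow replicate 3. The call passed under 7 of 16 alternatives and was lost without any 1 spleen array (0.0501 to 0.13), without bone marrow replicate 2 (0.0806), and with a floor of 64 on the intensities (0.169). The summed granulocyte and monocyte markers were 11814, 18205 and 30163 in bone marrow replicates 1, 2 and 3, in the same order as Ifitm3, a gene those cells also express. Their part in the Ifitm3 values was not tested.

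The other 11 tested effectors passed in none of the 3 comparisons. Ifit1 and Ifit3, which bind viral RNA or partner in that binding, had means of 59.8, 60.2 and 59.1 and of 68.7, 68.0 and 68.2. Ifit2 of the same family had 394, 368 and 314, with a bone marrow difference of -0.34 ± 0.17 from IL15tg spleen (adjusted p = 0.178). The Mx1 and Mx2 genes encode dynamin-like GTPases that trap viral particles. Mx1 had means of 72.1, 79.8 and 55.5 and Mx2 of 53.1, 56.1 and 60.6. Oas2, whose product makes the signal that switches on RNase L, had 108, 105 and 104, and its relative Oasl1 had 113, 118 and 130. Eif2ak2, the kinase PKR that halts translation upon double-stranded RNA, had 97.2, 100 and 101. Bst2, the tetherin that holds budding virus at the cell surface, had 61.2, 64.3 and 65.2. Cmpk2, a mitochondrial nucleotide kinase gene next to Rsad2 on chromosome 12, had 63.1, 80.5 and 64.9, with a spleen difference of 0.34 ± 0.18 (adjusted p = 0.279). Ifit1, Ifit3, Mx1, Mx2, Bst2 and Cmpk2 were dimmer than the median gene and close to the limit for testing, where differences are less certain. Samhd1, which depletes the nucleotides that viruses need for DNA synthesis, had 1343, 1270 and 1324 in its brightest probe set, with differences within 0.08 on the log2 scale. Its dimmer probe sets did not pass either, but they spread wider. The second gave 0.18 in spleen and 0.30 in bone marrow against IL15tg spleen (adjusted p = 0.591 and 0.241). The dimmest gave -0.62 and -0.51 (adjusted p = 0.15 and 0.182). Under the limit for testing, Oas3 had 25.1, 35.4 and 24.2 and Oasl2 32.1, 43.6 and 57.5.

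The 4 sensors of nucleic acid included 1 call, in the spleen comparison, where 12.5% of all genes passed. Ddx58, on chromosome 4, encodes RIG-I, which detects viral RNA in the cytoplasm. It read 398, 397 and 357 in IL15tg spleen, 675, 603 and 477 in NKDxIL15tg spleen, and 587, 420 and 571 in NKDxIL15tg bone marrow. Both NKDxIL15tg groups lay above IL15tg spleen without overlap. The spleen difference was 0.60 ± 0.17 (adjusted p = 0.0486), which became 0.0526 with the replicate number as a block. It passed under 6 of 16 alternatives, and was also lost without any 1 IL15tg array (0.115 to 0.149), without NKDxIL15tg spleen replicate 1 (0.139) or 2 (0.142) and without bone marrow replicate 1 (0.0569). The bone marrow difference from IL15tg spleen was 0.44 ± 0.17 (adjusted p = 0.0967), and 0.0395 was the adjusted p without bone marrow replicate 2. The dimmer Ddx58 probe sets gave spleen differences of 0.29 (adjusted p = 0.304) and 0.07 (adjusted p = 0.822). Ifih1, which encodes the related RNA sensor MDA5, had means of 201, 173 and 140 and a bone marrow difference of -0.56 ± 0.23 (adjusted p = 0.114). Dhx58 (LGP2, a regulator of both) had 59.7, 53.3 and 59.7 in its brightest probe set, with a spleen difference of -0.16 (adjusted p = 0.529). Its second probe set, with 44.8, 67.0 and 60.6, gave 0.57 in spleen (adjusted p = 0.153). Zbp1, a sensor of Z-form nucleic acid, had 111, 125 and 126. Neither gene passed.

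None of the 4 transcription factors passed in the 3 comparisons, where 12.5%, 0.0696% and 20.2% of all genes did. Each had a log2 change at or below -0.04 in the spleen comparison (median -0.11). Irf1, which switches on many genes of the gamma response, had means of 2473 ± 110, 2310 ± 260 and 2208 ± 252 (SD, n = 3). Irf7, which amplifies type I interferon production, had 421 ± 5.24, 410 ± 26.2 and 340 ± 52.3. Its values were 283, 385 and 352 in bone marrow, below the 418 to 427 of IL15tg spleen without overlap, and the difference of -0.32 ± 0.13 did not pass (adjusted p = 0.11). Irf9, the DNA-binding part of the type I complex, read 272, 286 and 814 in bone marrow and 237 to 321 in the 6 spleen arrays. Bone marrow replicate 3 was the array that stood out, and Irf9 was the 1 member of 33 over 2-fold above all other arrays there. Its bone marrow difference from NKDxIL15tg spleen was 0.62 with this array and 0.10 without it. Stat2, the partner of Irf9, had 58.4, 47.5 and 56.9, close to the limit for testing, and its spleen groups did not overlap (-0.30 ± 0.14, adjusted p = 0.201).

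The 4 ubiquitin-linked and regulatory members were at or below 0 in all 3 comparisons, with a median of -0.30 in spleen and -0.48 in bone marrow against IL15tg spleen. In the latter 2 of the 4 were lower, where 8.7% of all genes were. Parp14, on chromosome 16, encodes an ADP-ribosyltransferase. It read 768, 694 and 782 in IL15tg spleen, 601, 566 and 620 in NKDxIL15tg spleen, and 528, 456 and 440 in NKDxIL15tg bone marrow. The 3 groups were all apart from one another. Bone marrow was lower than IL15tg spleen by -0.66 ± 0.11 on the log2 scale (adjusted p = 0.00379). The steps from IL15tg to NKDxIL15tg spleen and from there to bone marrow were -0.33 ± 0.11 each and did not pass (adjusted p = 0.085 and 0.435). The second Parp14 probe set gave -0.48 (adjusted p = 0.0903) for bone marrow against IL15tg spleen.

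Trim25, on chromosome 11, encodes a ubiquitin ligase that acts with RIG-I. It read 714, 688 and 691 in IL15tg spleen, 610, 487 and 525 in NKDxIL15tg spleen, and 511, 456 and 413 in NKDxIL15tg bone marrow. IL15tg spleen lay above both other groups, which overlapped. The bone marrow difference was -0.60 ± 0.12 (adjusted p = 0.00903), and the second probe set gave -0.54 (adjusted p = 0.016), while the dimmest gave 0.03 (adjusted p = 0.883). The spleen difference was -0.37 ± 0.12 (adjusted p = 0.0782), which passed without bone marrow replicate 3 (adjusted p = 0.0433). Trim30a, a relative in the same protein family, had means of 3331, 2777 and 2638 and a bone marrow difference of -0.33 ± 0.14 (adjusted p = 0.114). Usp18, which strips Isg15 protein from its targets and dampens the type I receptor, had 85.6, 78.9 and 68.4, with a bone marrow difference of -0.35 ± 0.21 (adjusted p = 0.256).

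The other 3 members did not pass. Ifi35 had means of 1858, 1718 and 1662. Xaf1, a gene linked to cell death, read 792, 768 and 1476 in bone marrow and 694 to 836 in the spleen arrays, so that bone marrow replicate 3 again stood out. Ly6e, a membrane-anchored protein gene, had a wide spread within groups: its brightest probe set read 337, 447 and 233 in IL15tg spleen, 273, 572 and 166 in NKDxIL15tg spleen and 182, 184 and 324 in bone marrow. Its second probe set did not share this spread, with 326, 307 and 387, 230, 239 and 252, and 185, 252 and 298.

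**Figure D3:**
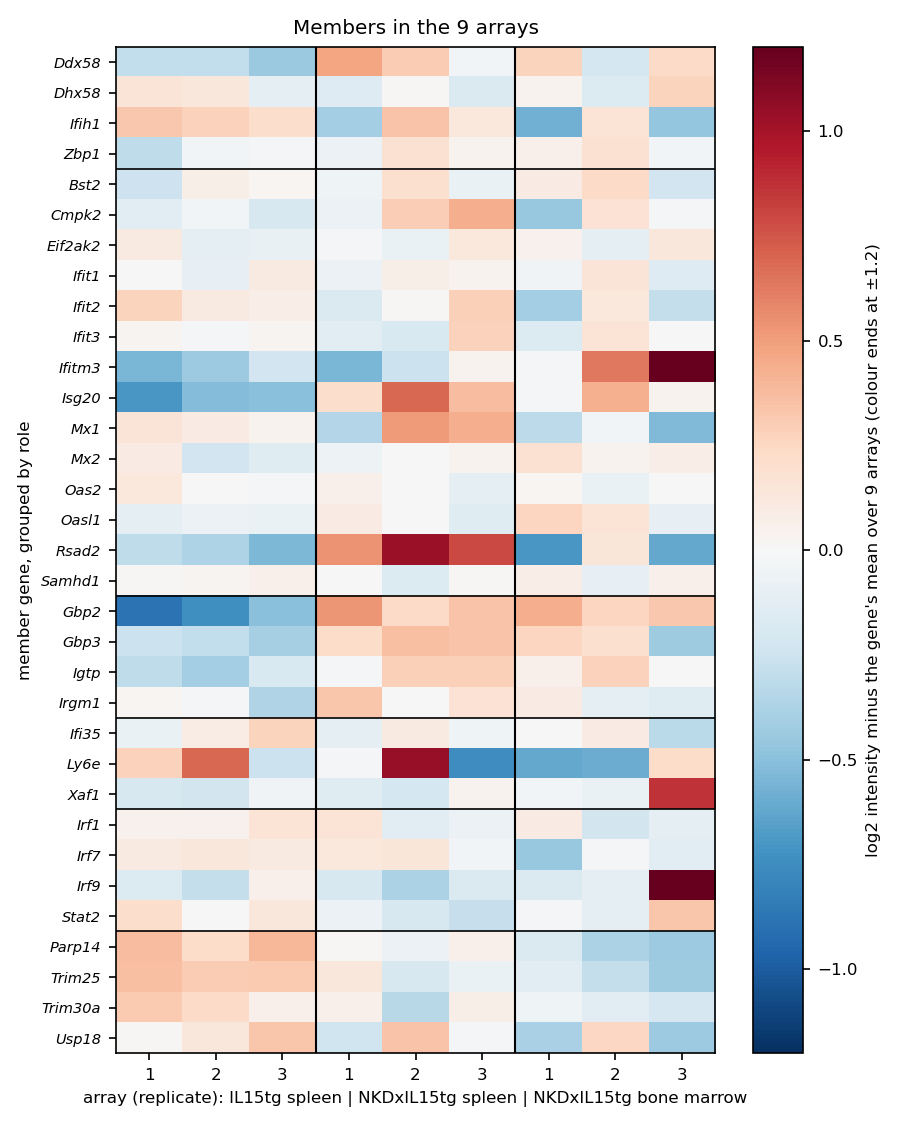
Log2 intensity minus the gene's mean over the 9 arrays (colour) for the 33 tested members (rows, grouped by role) in each array (columns, 3 per group). The dark cells in the last column are Irf9, Ifitm3 and Xaf1 in bone marrow replicate 3, and most other members stay pale in all columns.

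The calls did not rest on bone marrow replicate 3. Without it the 6 spleen calls and the 5 bone marrow calls were all kept, and the counts were 7 (with Trim25 added), 0 and 7 (with Gbp3 and Igtp added) of 33. The calls over all genes rose as well, from 1618 to 2377 in spleen and from 2608 to 2800 in bone marrow against IL15tg spleen. The spleen count was 3 without IL15tg spleen replicate 1, 2 or 3, or without NKDxIL15tg spleen replicate 2, where the calls over all genes went from 1618 to 835, 815, 925 and 969. The bone marrow count against IL15tg spleen was 3 without IL15tg spleen replicate 1, where the calls over all genes went from 2608 to 1399. Passed under all 16 alternative settings were Gbp2 in both comparisons with IL15tg spleen, Rsad2 and Isg20 in spleen, and Parp14 and Trim25 in bone marrow.

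The rest of the pathway was read from lists of ligands, receptors, nucleic acid sensing genes, regulators and further target genes, 54 of them tested. In spleen 4 were higher and 9 lower in NKDxIL15tg cells (24.1%), and in bone marrow against IL15tg spleen 3 were higher and 10 lower (24.1%). Of all genes, 12.5% passed in spleen (7.65% higher and 4.87% lower) and 20.2% in bone marrow (11.5% higher and 8.7% lower). The median log2 changes were -0.05 and -0.09. In bone marrow against NKDxIL15tg spleen none of the 54 passed in limma, and 5 had an unadjusted p under 0.05.

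Among the ligands, Ifng, the gene of interferon-gamma, read 2739, 3168 and 2606 in IL15tg spleen, 504, 586 and 858 in NKDxIL15tg spleen, and 324, 328 and 212 in NKDxIL15tg bone marrow. All 3 groups were apart. Both NKDxIL15tg groups were lower than IL15tg spleen, by -2.16 ± 0.23 (adjusted p = 0.000522) and -3.32 ± 0.23 (adjusted p = 3.52e-05). Ifna2 was the other ligand tested and did not pass, and Ifnb1, Ifna1 and Ifna4 lay under the limit.

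Among the receptors, 2 of 6 tested genes of the receptor and signalling list were lower in spleen and 1 of 6 in bone marrow against IL15tg spleen (4.87% and 8.7% of all genes). Ifnar1, a chain of the type I receptor, had means of 515 ± 86.4, 302 ± 55.9 and 354 ± 59.2 (SD, n = 3), and its differences from IL15tg spleen were -0.77 ± 0.19 (adjusted p = 0.0274) in spleen and -0.54 ± 0.19 (adjusted p = 0.0722) in bone marrow. Ifnar2, the other chain, had 237, 287 and 293 (0.27 ± 0.10, adjusted p = 0.103, and 0.30 ± 0.10, adjusted p = 0.055). Ifngr1, the ligand-binding chain of the gamma receptor, had 1856 ± 168, 1043 ± 218 and 1126 ± 337, lower by -0.85 ± 0.22 (adjusted p = 0.034) and -0.76 ± 0.22 (adjusted p = 0.0384). With the replicate number as a block the adjusted p of Ifngr1 was 0.0606 and 0.064. The calls of both receptor genes were also lost without IL15tg spleen replicate 1 (Ifnar1 0.108, Ifngr1 0.121 in spleen). Ifngr2 lay under the limit, at 38.5, 37.7 and 38.3.

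The list of nucleic acid sensing holds sensors together with adaptors, kinases and transcription factors. Of its 12 tested genes, 1 passed in spleen and 2 in bone marrow against IL15tg spleen (12.5% and 20.2% of all genes). Aim2, a sensor of cytoplasmic DNA, had means of 35.0, 78.4 and 105 and was higher by 1.17 ± 0.24 (adjusted p = 0.0129) and 1.54 ± 0.24 (adjusted p = 0.00254). With a floor of 64, which lies above its IL15tg values, the adjusted p was 0.55 and 0.108. Tbk1, the kinase that activates Irf3, was lower in bone marrow (-0.34 ± 0.10, adjusted p = 0.0359), a call that passed under 6 of 16 alternatives. Of 6 regulators, 1 passed in spleen and in bone marrow against IL15tg spleen (12.5% and 20.2% of all genes). Irf8, a transcription factor of the interferon response that also marks plasmacytoid dendritic cells, read 2559, 2560 and 2305 in IL15tg spleen, 1234, 1321 and 1030 in NKDxIL15tg spleen and 1015, 881 and 742 in bone marrow. The 3 groups were apart, and the differences from IL15tg spleen were -1.06 ± 0.15 (adjusted p = 0.00209) and -1.50 ± 0.15 (adjusted p = 0.000238).

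Of 28 further interferon-induced genes, 3 were higher and 5 lower in spleen, and 2 were higher and 6 lower in bone marrow against IL15tg spleen. This is 28.6% in each, beside 12.5% and 20.2% of all genes. Herc6, a ligase for Isg15 protein in mice, had means of 175, 269 and 229 and was higher in both (0.62 ± 0.11, adjusted p = 0.00605, and 0.38 ± 0.11, adjusted p = 0.033). Rtp4 (0.65 ± 0.18, adjusted p = 0.0467) and Parp12 (0.45 ± 0.12, adjusted p = 0.0397) were higher in spleen, and Gbp6, another guanylate-binding protein gene, in bone marrow (0.46 ± 0.13, adjusted p = 0.0374). Lower in both were Slfn8, Adar, Epsti1, Pml and Tdrd7. Slfn8, of the Schlafen family, had means of 1066, 407 and 370 (-1.43 ± 0.21 and -1.54 ± 0.21). Epsti1 had 2083, 1314 and 1112 (-0.66 ± 0.12 and -0.91 ± 0.12). Pml, the core gene of nuclear bodies, had 241, 156 and 118 (-0.65 ± 0.16 and -1.04 ± 0.16). Adar, which edits double-stranded RNA, had 400, 209 and 196 in its brightest probe set (-0.95 ± 0.16 and -1.02 ± 0.16), and Tdrd7 had 314, 219 and 204 (-0.52 ± 0.13 and -0.62 ± 0.13).

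Trim21, an antibody receptor and ubiquitin ligase in the cytoplasm, was lower in bone marrow by -0.35 ± 0.10 (adjusted p = 0.0396). Read from the mean of a gene's probe sets, Trim21 turned to 0.04 (adjusted p = 0.769), and the calls of Adar (adjusted p = 0.275 and 0.484), Tdrd7 (0.33 and 0.387), Herc6 (0.846 and 0.12), Rtp4 (0.152), Gbp6 (0.834) and Tbk1 (0.0827) were lost. With the replicate number as a block Parp12 (0.0622), Gbp6 (0.0621) and Trim21 (0.0594) were lost, and Rtp4 in bone marrow was gained (0.0355). The calls of Ifng, Irf8, Slfn8 and Epsti1 in both comparisons, and of Pml in bone marrow, passed under all 16 alternatives. The remaining calls named here were each lost under at least 1.

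**Figure D4:**
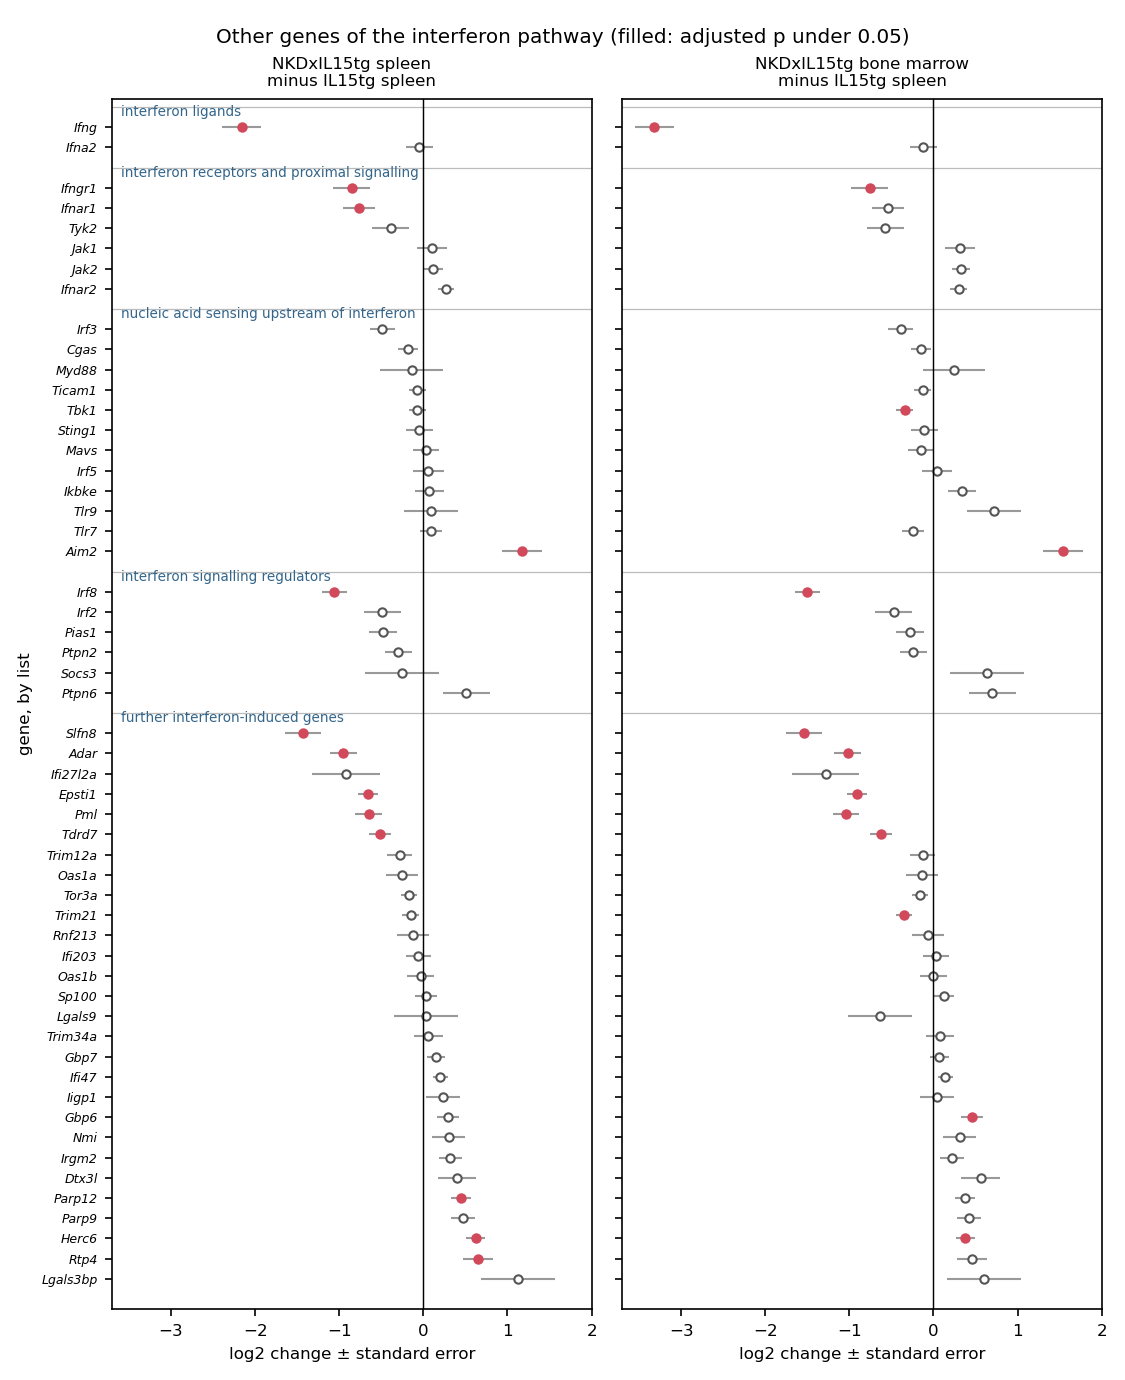
Log2 change (x axis, with its standard error) of the 54 tested genes of the rest of the pathway (y axis, by list), for NKDxIL15tg spleen (left) and NKDxIL15tg bone marrow (right) against IL15tg spleen, 3 arrays per group. Filled points have an adjusted p under 0.05. Ifng lies farthest to the left, and Aim2 is the filled point farthest to the right.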

How the data were processed

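The deposited table gives linear intensities of 45101 probe sets on 9 arrays (0 columns without a sample). Per the labels' protocols, 150 ng of total RNA per sample were amplified from the 3′ end in 2 cycles, so probe sets far from that end can read low. The summarisation of probes and the scaling between arrays are not given in the sources used here. Values were used as deposited, set to a floor of 16 (4.36% lay below it), and transformed to log2. Of all probe sets, 34945 carry 1 gene symbol, 932 several and 9160 none, and 64 are controls, which were left out. The test covered the 27022 probe sets with a mean log2 intensity at or above the 40th percentile (5.58). A gene was read from its brightest probe set with 1 symbol. Intensities of different probe sets are not comparable as levels.

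All arrays entered 1 fit of 3 group means (limma 3.58.1, R 4.3.3, 2-sided, Benjamini-Hochberg over tested probe sets, threshold 0.05), and checked on simulated data. Positive changes are higher in the group named first. An exact test of 3 against 3 cannot give a p below 0.1, so none was run. The number of arrays limits the precision. Every member was described, with all arrays for those that passed or changed by at least 1 (log2) in any comparison, and pathway genes where they passed, plus the receptors. The members and lists were chosen with earlier results of these data known. The labels do not say that replicate numbers pair samples. Deviations of same-numbered replicates from their group means were correlated in both spleen groups (0.163, 0.156 and 0.123). The values were 0.379, 0.258 and 0.228 in NKDxIL15tg spleen and bone marrow, and 0.17, -0.024 and 0.242 in IL15tg spleen and bone marrow. Differently numbered replicates were not set beside them, so these values alone cannot show pairing. Same-numbered replicates were treated as paired in a fit with the replicate number as a block. Alternatives were quantile normalization, scaling to a common 75th percentile, a floor of 64, no filter, the mean of a gene's probe sets, the replicate block, array weights, and leaving out each array. Promoter windows of 300 bases come from RefSeq and were searched for exact motif matches.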

Additional observations from a re-analysis of the deposited data

How the results depend on the processing

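Each of 99 member differences was refitted under 16 alternatives, which gave 1578 values. Of these, 1431 kept direction and side of the threshold, 39 lost a call, 13 gained one, 95 changed sign with no call either way, and 0 reversed a call. Members higher or lower in NKDxIL15tg against IL15tg spleen numbered 3 to 7 with 1 array left out, and 4 with the replicate block. In bone marrow against IL15tg spleen they numbered 3 to 7 with 1 array left out, 8 with array weights and 5 with the replicate block. In bone marrow against NKDxIL15tg spleen they numbered 0 under every alternative. Over all genes, array weights gave 2473 calls in spleen and 3617 in bone marrow against IL15tg spleen. The bone marrow and spleen of NKDxIL15tg differed in 2 genes with a floor of 64 and 0 without a filter. With 1 array left out, all-gene calls ran from 815 to 2377, from 0 to 10 and from 1399 to 2800 in the 3 comparisons. With the replicate block (paired fit) they were 1633, 13 and 2665, and no member call changed other than the losses of Ddx58 and Igtp in spleen. Trim21 in bone marrow reversed to 0.04 with the mean of probe sets. Causes were not tested. Members under an intensity of 100, 13 of 35, lie close to the limit for testing, where differences are less certain.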

Other observations

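Replicates of a group have no order, but the members were not spread evenly over the arrays. In NKDxIL15tg spleen replicate 2, 10 of 33 members (30.3%) were at their highest of all 9 arrays, where 10.1% of all genes were. A pattern noticed after the values were seen joins 2 arrays: 11 of 33 members (33.3%) were lowest of their group in NKDxIL15tg spleen replicate 1 and highest of their group in bone marrow replicate 2, which 11.7% of all genes (1517 of 12925) also were. These members were Rsad2, Isg20, Ifit1, Ifit2, Mx1, Usp18, Ifih1, Ifi35, Igtp, Zbp1 and Cmpk2. Mx1 read 52.7, 95.7 and 90.9 in NKDxIL15tg spleen and 54.0, 65.8 and 46.7 in bone marrow. Ifih1 read 126, 211 and 182, then 112, 187 and 121. The second Rsad2 probe set read 44.1, 107 and 101, then 30.5, 67.0 and 31.8. In IL15tg spleen Mx1 read 69.3 to 74.9 and Ifih1 193 to 208. The pattern was not tested.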
